A study of Mus musculus with 27 samples.

Results

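The mouse heat shock chaperones Hspa8, Hspa4, Hsp90aa1, Hsp90ab1, Hspd1, Hspe1, Hsph1, Dnaja1, Dnajb1 and Hspb1 were followed while limb bud mesenchymal cells became cartilage-forming cells in culture. They were found as every probe set of the arrays annotated to one gene only, by its current symbol or an older alias. That rule found 18 probe sets of 9 of the 10 genes, out of 36701 probe sets in all, and Hsp90ab1 had no probe set of its own. A total of 14 of the 18 probe sets, covering all 9 genes, reached a mean signal of 200 in at least 1 group and were tested with the 23545 probe sets that did so.

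Total RNA of 9 samples was hybridised to 27 Affymetrix MG_U74 arrays, 1 of each type (A, B and C) for every sample. The samples fall into 3 groups of 3, numbered 1, 3 and 4: mesenchymal cells of the limb bud (titled OH, with no day given), the same kind of cell at day 1 (1D) and at day 3 (3D). The labels state no strain, genotype, age or agent, and they give the limb region below the apical ridge as the source of the cells and fibroblasts as the contaminating cell type. Nothing in them says that the 3 samples of a group came from separate animals or cultures, so the p-values speak of the spread among 3 RNA samples, possibly a technical one, and the small number of arrays limits the precision. In RNA of a whole culture, fewer cells of a type and less RNA per cell cannot be told apart.

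Heat shock proteins hold unfolded or partly folded proteins and help them reach their native shape. In the cytosol, HSP70 proteins such as Hspa8 take up clients delivered by J proteins such as Dnaja1 and Dnajb1, exchange factors such as Hspa4 and Hsph1 renew their nucleotide, and many clients pass on to HSP90. In mitochondria, Hspd1 (HSP60) forms the folding chamber and Hspe1 (HSP10) its lid. Many of these genes carry heat shock elements, the binding motif of heat shock factors, made of inverted repeats of a short unit. Cartilage-forming cells secrete large amounts of collagen, which is folded in the endoplasmic reticulum (ER) by a different set of chaperones.

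The promoters are shown because 2 members share one. No RefSeq window was given for Hspa8, Hsp90aa1 or Hsp90ab1, so these genes were not searched. For the other 7 of the 10 genes there were 12 windows of 300 bases, 250 before and 50 after a gene's start (build GRCm38.p6). They were searched on both strands for TTCNNGAA and GAANNTTC (2 units, each its own reverse complement) and for TTCNNGAANNTTC and GAANNTTCNNGAA (3 units, each holding both 2-unit motifs). A 2-unit match lay in a window of 5 of the 7 genes, against 17% of 27025 genes with a window, and a 3-unit match in a window of 3 genes (Hspd1, Hspe1 and Hsph1), against 0.662%. The windows of Hspd1 and Hspe1 run in opposite directions and share 285 bases. One run of 18 bases serves both windows, 89 to 72 bases before the start of Hspe1 and 144 to 127 bases before that of Hspd1. The stretches below give the matches that lie before the start in capitals with 30 flanking bases in lower case, cut at the start for Hsph1, whose 3-unit match lies after the start and is not shown. They are chr1:55088029-55088106 (plus strand), chr5:149636337-149636399 (minus strand), chr4:40722314-40722381 (plus strand) and chr5:135887772-135887859 (plus strand). A match is a run of letters and not a measured site.
Hspe1 (and, on the other strand, Hspd1): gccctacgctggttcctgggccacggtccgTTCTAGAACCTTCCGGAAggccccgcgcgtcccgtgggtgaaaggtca
Hsph1: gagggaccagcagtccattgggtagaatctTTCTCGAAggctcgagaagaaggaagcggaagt
Dnaja1: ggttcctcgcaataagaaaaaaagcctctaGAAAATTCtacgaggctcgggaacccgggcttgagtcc
Hspb1: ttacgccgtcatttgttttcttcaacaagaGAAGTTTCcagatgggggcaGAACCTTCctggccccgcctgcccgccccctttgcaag

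The values are MAS5 signals, rescaled so that every array has the same trimmed mean, and changes are differences of log2(signal + 50) with limma's standard error and n = 3 samples a group. A change was called at an adjusted p of at most 0.05, Benjamini-Hochberg adjusted over all 23545 probe sets. A gene is given by 1 probe set, on array type A where it passed there and then by the highest mean. Of 15 measured chondrocyte markers, 14 were called higher at day 3 than in mesenchymal cells. Their summed signal went from 4978.3 to 5944.5 up to 91597.8 to 105180.3. Some of them passed the filter only through the later groups, such as Cytl1 (mean 43.8 in mesenchymal cells and 20022.0 at day 3). The filter thus favours a rise among those measured, and the count is no test of the labels. The probe set of the cartilage collagen Col2a1 lay below the filter. At day 3 against mesenchymal cells 13.5% of all genes were called, either way. Markers of other cells moved as well. In the same comparison 7 of 8 erythroid markers were called lower (summed signal 117382.7 to 255668.9 in mesenchymal cells and 6815.0 to 19964.4 at day 3), as were 4 of 8 endothelial ones (3059.8 to 3942.8 against 993.1 to 2120.3). Of 9 fibroblast markers, 6 were called higher and 1 lower (11207.0 to 12279.5 against 25320.4 to 30028.6), and 5 of 8 smooth muscle markers were called higher (2462.9 to 3589.2 against 22518.5 to 30005.2). Of 6 macrophage markers 3 were called higher (909.9 to 1927.3 against 2387.8 to 2688.7), of 8 limb mesenchyme markers 1 higher and 2 lower, and of 5 skeletal muscle and 5 epithelial markers 0. The filter selects among these genes as well. The endothelial Cdh5 passed it only through mesenchymal cells (mean 496.8, and 12.9 at day 3). The smooth muscle gene Cnn1 (74.1 in mesenchymal cells and 2568.7 at day 3) and the macrophage gene Lyz2 (28.1 and 542.6) passed only through later samples. Genes of this kind enter a list because of their fall or rise, so these counts and sums are no test of which cells were present. One sample of each group stood apart in 18S ribosomal RNA signal, at 9946.2 to 15097.7 (mesenchymal replicate 1, day 1 replicate 4 and day 3 replicate 4) against 593.0 to 2287.9 in the other 6. The part of these differences in the results that follow was not tested, beyond the values without those 3 samples.

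Among the 9 genes, Hsp90aa1 was the one whose change was called, and it was lower at day 3 than in mesenchymal cells. None of the 14 probe sets was called at day 1 against mesenchymal cells, where limma called 4.79% of all probe sets, or at day 3 against day 1, where it called 1.61%. At an unadjusted p under 0.05 there were 4 probe sets in the first of these (background 18.6%) and 0 in the second (background 10.8%). At day 3 against mesenchymal cells 1 of 14 was called, against 10.6% of all probe sets (4.03% lower, as that one was), and 4 had an unadjusted p under 0.05 (background 24.5%). The counts of members called thus lie near the background in all 3 comparisons. The median size of the change over the 14 probe sets, without regard to sign, was 0.40 log2 units between mesenchymal cells and day 1 (all probe sets 0.36), 0.14 between day 1 and day 3 (0.28) and 0.21 between mesenchymal cells and day 3 (0.42). The 3 samples of one group lay wholly above or below the other for 6 probe sets in the first comparison (1 higher and 5 lower, background 23.3%), for 1 in the second (higher, background 18.6%) and for 2 in the third (1 higher and 1 lower, background 27.6%). Of the 5 lower ones, 3 are probe sets of Hspa4 that differ in sign from its strongest probe set.

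**Figure D1:**
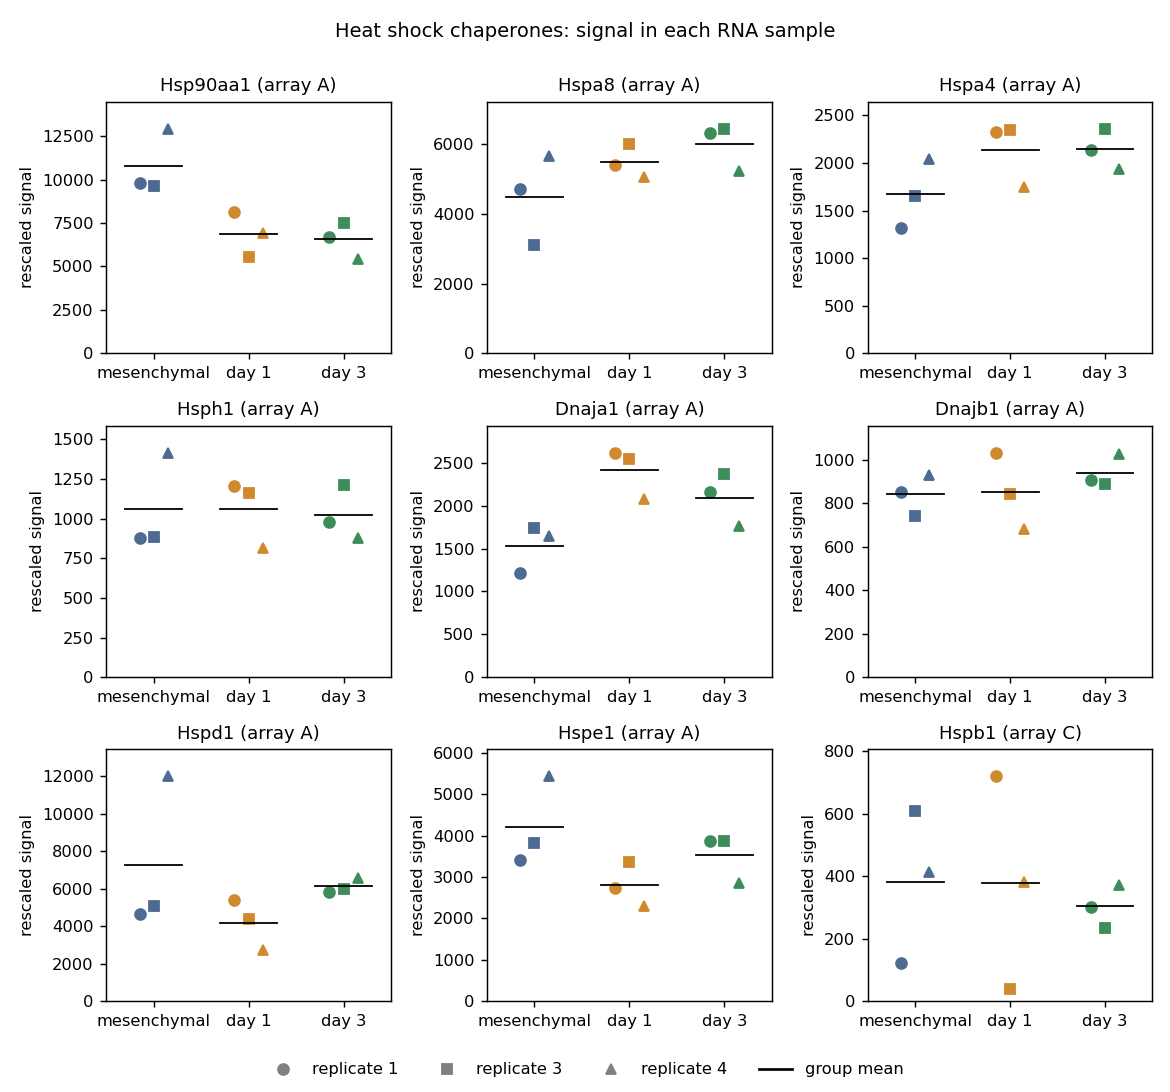
Rescaled MAS5 signal (linear axis from 0) of 9 heat shock chaperones in each of 9 RNA samples, by group, with the replicate number as the symbol and the group mean as a line. The mesenchymal samples of Hsp90aa1 (9609.0 to 12942.2) lie above all day 1 and day 3 samples, and those of Dnaja1 (1217.2 to 1734.2) lie below them.

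Hsp90aa1 encodes the stress-inducible cytosolic HSP90. Its signal was 9826.1, 9609.0 and 12942.2 in mesenchymal replicates 1, 3 and 4. At day 1 it was 8137.4, 5570.8 and 6936.5, and at day 3 it was 6705.3, 7520.8 and 5448.8. All 3 mesenchymal samples lay above all 6 later samples, and the day 1 and day 3 samples overlapped. The signal at day 3 was 1.64-fold lower than in mesenchymal cells (95% confidence interval 1.23 to 2.18 on the log2(signal + 50) scale), a change of -0.71 ± 0.19 (SE, n = 3) with a limma adjusted p of 0.0312. At day 1 the difference was -0.65 ± 0.19, with a confidence interval of -1.06 to -0.24, and was not called (limma adjusted p = 0.0772). Between day 1 and day 3 the difference was -0.06, with a confidence interval of -0.48 to 0.35.

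The call for Hsp90aa1 was sensitive to the scan batch, to single samples and to the fit. Without the variance trend, or with same-numbered samples as a block, it was lost. Its moderated F test over the 3 groups gave an adjusted p of 0.0506. On array type A, mesenchymal replicates 1 and 3 were scanned with day 1 replicate 1, the other day 1 samples with all of day 3, and mesenchymal replicate 4 by itself, so no scan batch held both mesenchymal and day 3 samples. Within the first batch, day 1 replicate 1 differed from the mean of the 2 mesenchymal samples by -0.25, and within the second batch day 3 differed from day 1 by 0.06. Blocking by scan batch moved the change at day 3 to -0.19 (limma adjusted p = 0.798). That value links the groups only through day 1 replicate 1, the single day 1 sample scanned with mesenchymal ones. Mesenchymal replicate 4, alone in its batch, adds nothing to it. The same holds for the other changes from mesenchymal cells on array type A with the scan batch as a block. Without mesenchymal replicate 4, which is the highest of the 9 samples, it was -0.58 (0.0843). Without mesenchymal replicate 1 it was -0.77 (0.0508), without day 3 replicate 1 it was -0.74 (0.0852) and without day 3 replicate 4 it was -0.59 (0.0928). Without the 3 samples of high 18S signal it was -0.65 (0.107). Over all 19 alternatives the adjusted p ran from 0.0249 to 0.798, and the sign was negative in every one. The other probe sets of Hsp90aa1, 1 on array type A (161869_i_at) and 1 on B (105094_at), lay below the filter with signals of 9.6 to 133.1 and 16.2 to 120.1, and were not tested.

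**Figure D2:**
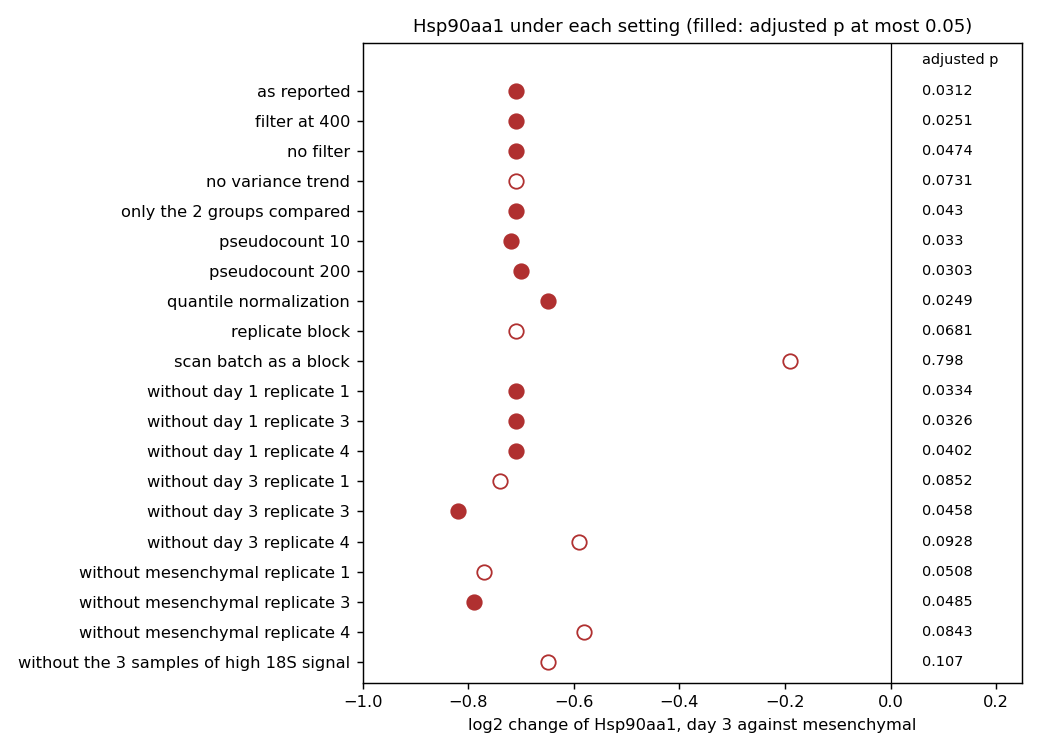
Log2 change of Hsp90aa1 at day 3 against mesenchymal cells (x axis) under the reported setting and 19 alternatives (y axis), with the limma adjusted p at the right and filled points where it is at most 0.05. The change stays between -0.82 and -0.58 except with the scan batch as a block, where it is -0.19.

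The genes whose signal most resembled that of Hsp90aa1 over the 9 samples were Rif1, Ctsc, Hnrnpu, Srf and Yes1, by Pearson's r of log2 signals among 12205 other genes. Their r was 0.977, 0.96, 0.957, 0.953 and 0.951. These points share the 3 groups, the scan batches and the scaling, and the best of so many genes is high by selection. Srf, a transcription factor of cytoskeletal and immediate early genes, had mean signals of 2346.6, 959.7 and 1075.7 in mesenchymal, day 1 and day 3 samples. Among the chaperones the r with Hsp90aa1 was highest for Hspe1 (0.606) and Hspd1 (0.482) and lowest for Dnaja1 (-0.522).

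The cytosolic HSP70 Hspa8, the constitutive member of its family, had signals of 4723.4, 3114.7 and 5653.8 in mesenchymal cells. At day 1 they were 5415.6, 5999.1 and 5072.0, and at day 3 they were 6314.6, 6454.6 and 5236.1. The groups overlapped, because mesenchymal replicate 4 lay within the range of the later samples. Neither the difference at day 1 (0.32 ± 0.20, limma adjusted p = 0.433) nor that at day 3 against mesenchymal cells (0.45 ± 0.20, adjusted p = 0.196) was called. The confidence interval of the latter, 0.01 to 0.89, holds both a negligible change and a rise of up to 1.85-fold. Processed copies of this and other heat shock genes exist in the mouse genome, and probe sets of highly expressed genes may take up their signal.

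The J proteins pass clients to HSP70 and start its ATP cycle. Dnaja1 had signals of 1217.2, 1734.2 and 1648.2 in mesenchymal cells, of 2619.8, 2540.0 and 2075.1 at day 1, and of 2155.8, 2365.5 and 1764.4 at day 3. Each mesenchymal sample lay below each later sample, the reverse of Hsp90aa1. The difference at day 1 was 0.65 ± 0.18 (confidence interval 0.24 to 1.05), the largest positive one among the 9 genes, and it was not called (limma adjusted p = 0.0714). At day 3 against mesenchymal cells it was 0.44 ± 0.18 (adjusted p = 0.157). Day 1 replicate 1 lay 0.83 above the 2 mesenchymal samples scanned with it. Leaving out single samples moved the difference at day 1 between 0.49 and 0.75, with adjusted p of 0.0602 to 0.234.

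Dnajb1, the best known stress-inducible J protein of the cytosol, did not move beyond its spread. Its signal averaged 840.4 ± 94.9 (SD, n = 3) in mesenchymal cells, 851.9 ± 176.0 at day 1 and 940.4 ± 75.1 at day 3. All 9 samples lay between 680.8 and 1032.5. The confidence interval of its difference was -0.41 to 0.42 at day 1 and -0.26 to 0.57 at day 3, both against mesenchymal cells. A probe set on array type C (165414_at) gave differences of -0.09 and 0.01 in the same comparisons.

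Hspa4 and Hsph1 belong to the HSP110 family, which frees HSP70 of ADP. The strongest Hspa4 probe set (96594_at) read 1320.0, 1655.4 and 2042.3 in mesenchymal cells, 2326.7, 2343.9 and 1746.4 at day 1, and 2137.4, 2361.7 and 1938.4 at day 3. Its differences from mesenchymal cells, 0.35 ± 0.19 at day 1 and 0.37 ± 0.19 at day 3, were positive and not called (limma adjusted p = 0.352 and 0.264). The other 3 probe sets of Hspa4 past the filter had the opposite sign in both comparisons. They read -0.20 (100353_g_at), -0.44 (161745_f_at) and -0.61 (92571_at) at day 1, where the mesenchymal samples of all 3 lay above those of day 1, and -0.13, -0.20 and -0.65 at day 3. No Hspa4 probe set was called in any comparison, and the files do not show which of them reads the gene. The remaining one (100352_at) lay below the filter at 59.7 to 299.7.

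Hsph1 had almost the same mean in every group, 1060.7 ± 308.0 (SD, n = 3) in mesenchymal cells, 1060.9 ± 215.0 at day 1 and 1023.1 ± 169.0 at day 3. Its highest sample was mesenchymal replicate 4 at 1416.1 and its lowest day 1 replicate 4 at 813.6. The differences from mesenchymal cells had confidence intervals of -0.48 to 0.51 at day 1 and -0.53 to 0.47 at day 3.

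The mitochondrial pair was lowest on average at day 1. Hspe1, the lid of the chaperonin, read 3406.4, 3822.9 and 5427.6 in mesenchymal cells, 2745.3, 3367.3 and 2298.5 at day 1, and 3878.4, 3867.1 and 2863.2 at day 3. All day 1 samples lay below all mesenchymal ones, and day 3 overlapped both. The difference at day 1 was -0.57 ± 0.21 (confidence interval -1.03 to -0.11) and was not called (limma adjusted p = 0.165).

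Hspd1, the chamber, read 4680.1, 5103.2 and 11993.4 in mesenchymal cells, 5415.1, 4397.5 and 2717.7 at day 1, and 5831.5, 5998.4 and 6553.1 at day 3. Mesenchymal replicate 4 stood far above the other 8 samples. Its difference at day 1 against mesenchymal cells, -0.71 ± 0.32, was not called (limma adjusted p = 0.268) and was 0.15 with the scan batch as a block. All day 3 samples lay above all day 1 samples, with a difference of 0.60 ± 0.32 that was not called (adjusted p = 0.570). In the scan batch that held all day 3 samples with day 1 replicates 3 and 4, but not day 1 replicate 1, the difference was 0.81. A weak second probe set of Hspd1 (161140_r_at), at 57.0 to 485.7, had the opposite sign in all 3 comparisons and confidence intervals over 2 log2 units wide.

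Taking the log2 ratio of Hspd1 to Hspe1 within each sample removes what scales both alike. The ratio was 0.45, 0.41 and 1.14 in mesenchymal cells, 0.97, 0.38 and 0.24 at day 1, and 0.58, 0.63 and 1.18 at day 3, with all groups overlapping. Its group means differed by -0.14 (day 1 minus mesenchymal), 0.27 (day 3 minus day 1) and 0.13 (day 3 minus mesenchymal). Two-sided exact permutation tests gave p = 0.5, 0.4 and 0.5, where 0.1 is the smallest p that 3 samples against 3 allow.

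Hspb1 (HSP27), a small heat shock protein that binds unfolding proteins without ATP, was barely measured. Its probe set past the filter, on array type C (171538_f_at), read 122.2, 608.6 and 412.3 in mesenchymal cells, 718.6, 38.4 and 381.6 at day 1, and 302.7, 235.1 and 372.5 at day 3. The day 1 samples alone spanned the whole range of the 9, so the probe set gave no usable order of the groups. The other one (92853_at, array type A) lay below the filter at 11.3 to 173.4.

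**Figure D3:**
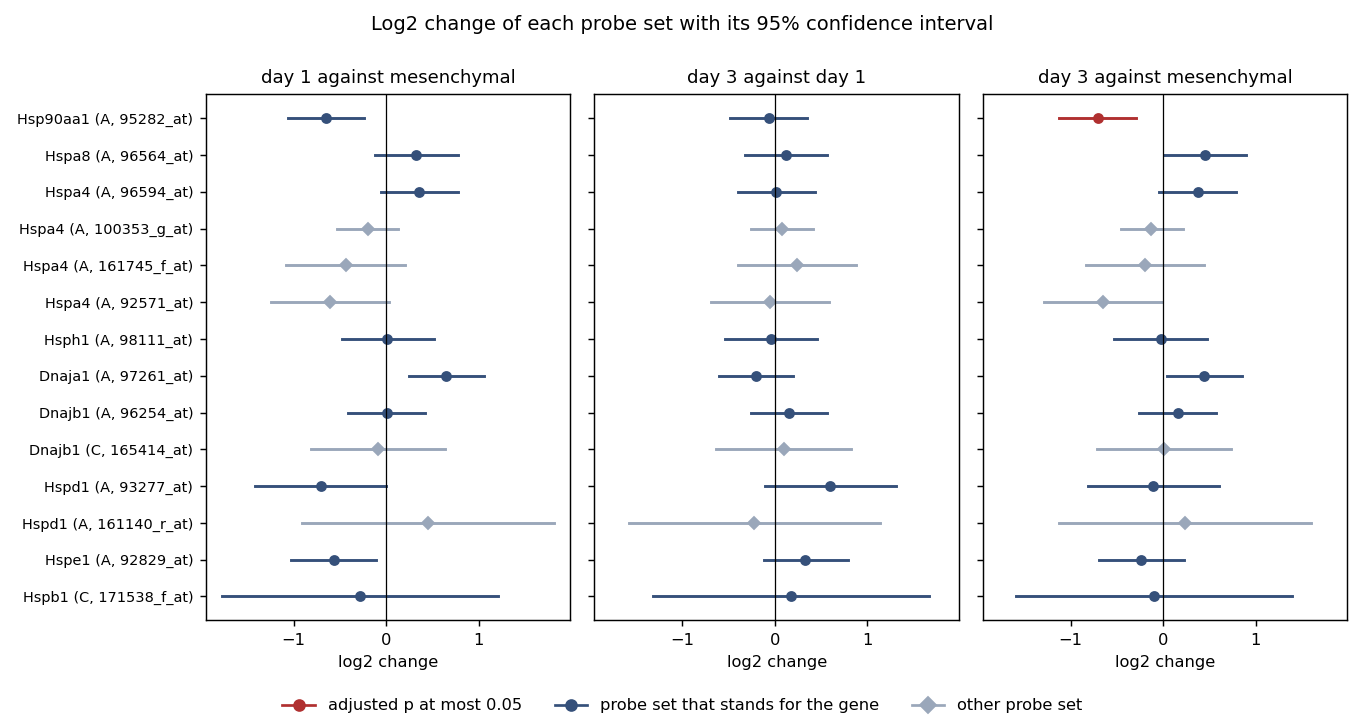
Log2 change (x axis) of the 14 tested probe sets of heat shock chaperones (y axis, with array type and probe set) in the 3 comparisons; points are limma estimates and lines 95% confidence intervals. One interval is drawn in red as called, Hsp90aa1 at day 3 against mesenchymal cells (-1.13 to -0.30), and the Hspa4 probe sets lie on both sides of 0.

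The highest of the 9 samples was mesenchymal replicate 4 for 4 of the 9 genes (Hsp90aa1, Hspd1, Hspe1 and Hsph1), day 1 replicate 1 for 3 and day 3 replicate 3 for 2. The lowest was day 1 replicate 4 for 4 genes. Mesenchymal replicate 4 was scanned by itself on every array type, and day 1 replicate 4 is one of the 3 samples of high 18S signal.

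Hspa1b, a strictly stress-inducible HSP70 next to Hspa8 in the pathway, was lower at day 1 than in mesenchymal cells. It read 355.1, 262.8 and 656.7 in mesenchymal cells, 113.6, 144.2 and 24.7 at day 1, and 172.3, 190.7 and 184.3 at day 3. The difference was 3.35-fold (-1.75 ± 0.40, limma adjusted p = 0.0265). This was 1 of 9 other HSP70 and HSP110 genes called in that comparison (median change over the list -0.46, over all genes -0.02), against 5.91% of all 12214 genes (2.32% at day 3 against day 1). The call was lost in 9 of 19 alternatives, among them the one with scan batches blocked (-1.12), and the adjusted p ran from 0.0232 to 0.331. Leaving out mesenchymal replicate 1 or 4, or day 1 replicate 1 or 4, each ended it, and the change over single samples left out was -2.02 to -1.33. Hspa1a, a near-identical copy whose signal cannot be cleanly separated from it, read 292.8, 372.1 and 788.9, then 60.2, 228.8 and 126.5, then 137.8, 233.7 and 185.2. Its difference at day 1, -1.49 ± 0.40, was not called (adjusted p = 0.0574). The day 1 and day 3 means of both genes lie under the signal of 200 used as the filter, so these folds depend on the pseudocount. Both passed the filter only through mesenchymal cells, the group where they were high (means of 424.9 for Hspa1b and 484.6 for Hspa1a). No gene of this list lay below the filter.

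Among 16 measured co-chaperones of HSP70 and HSP90, 0 were called at day 1 and 1 at day 3 against mesenchymal cells, where 13.5% of all genes were called. That one was Fkbp4, an immunophilin that docks on HSP90, with signals of 5690.6, 6147.1 and 6271.1 in mesenchymal cells and 4249.2, 4248.2 and 3992.5 at day 3 (-0.53, limma adjusted p = 0.0254). Blocking by scan batch gave -0.29 (adjusted p = 0.579). The 3 other tested probe sets of Fkbp4 read -0.34 to -0.24 and were not called (lowest adjusted p = 0.482). The scaffold Stip1, which bridges HSP70 and HSP90, differed by -0.30 ± 0.21 (adjusted p = 0.418). Of 13 other J proteins 1 was called in that comparison, the histone chaperone Dnajc9 at -0.75 (adjusted p = 0.0349). Of 14 subunits of the CCT chaperonin and prefoldin 1 was called, Cct6a at -0.74 (adjusted p = 0.0304), whose other tested probe set read 0.11. The calls for Dnajc9, Fkbp4 and Cct6a were lost in 11, 10 and 9 of 19 alternatives, with adjusted p of up to 0.465, 0.579 and 0.0974. Over single samples left out, the changes of these genes were -1.0 to -0.59, -0.57 to -0.50 and -0.81 to -0.67. The median change in this comparison was 0.01 over the co-chaperones, -0.19 over the J proteins and -0.28 over the chaperonin list, beside -0.05 over all genes.

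No gene was called in any comparison among the 11 measured mitochondrial chaperones and proteases, where 5.91%, 2.32% and 13.5% of all genes were called (day 1 against mesenchymal cells, then day 3 against day 1 and against mesenchymal cells). A count of 0 of 11 is near these shares. Hspa9, the mitochondrial HSP70, read 2497.0 ± 409.0 (SD, n = 3) in mesenchymal cells, 1759.1 ± 229.0 at day 1 and 2102.9 ± 270.0 at day 3. Like those of Hspe1, its day 1 samples all lay below the mesenchymal ones, with a difference of -0.49 ± 0.17 that was not called (limma adjusted p = 0.150).

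Of 7 small heat shock proteins, 1 was called, and it was called in all 3 comparisons. Of all genes, 5.91% were called at day 1 against mesenchymal cells. At day 3 the share was 2.32% against day 1 and 13.5% against mesenchymal cells. Hspb6 (HSP20), which is abundant in muscle, read 562.4, 574.2 and 465.9 in mesenchymal cells, 1245.9, 1144.6 and 1499.1 at day 1, and 2178.0, 2645.8 and 3039.8 at day 3. The groups were fully separated and in order, with changes of 1.20 at day 1, 0.98 from day 1 to day 3 and 2.19 over the whole course (limma adjusted p = 5.87e-06 for the last). It lies on array type B, where all day 3 samples form a scan batch of their own, so batch and group cannot be told apart for the 2 changes that end at day 3. All day 1 samples were scanned with mesenchymal replicates 1 and 3, and blocking by scan batch left the change at day 1 called (1.11, adjusted p = 0.0331). That change was called in all 19 alternatives. Leaving aside the scan batch, the change over the whole course was called in 18 of 18 and that from day 1 to day 3 in 12 of 18. With the replicate block the latter was 0.98 (adjusted p = 0.0512) and not called. At day 3 against mesenchymal cells 5 of 8 smooth muscle markers were called higher too, as given above, and their part in this result was not tested. The change from day 1 to day 3 was not called without day 1 replicate 1 (0.96), day 1 replicate 3 (0.90), day 3 replicate 3 (0.97) or day 3 replicate 4 (0.87).

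Of the heat shock factors and their regulators, 2 were measured. Hsbp1, a small protein that binds heat shock factor trimers, was called higher at day 3 than in mesenchymal cells (0.89, limma adjusted p = 0.0228), with signals of 434.9, 414.9 and 479.3 against 937.7, 1094.7 and 624.5. In that comparison 13.5% of all genes were called. The call for Hsbp1 was lost in 5 of 19 alternatives. Blocking by scan batch gave 1.00 (adjusted p = 0.238). Leaving out mesenchymal replicate 1 or 3, or day 3 replicate 1 or 3, each ended it as well. Over single samples left out the limma adjusted p was 0.00696 to 0.117. Hsf2 did not move beyond its spread, at 806.5 ± 118.0 (SD, n = 3) in mesenchymal cells and 728.7 ± 96.5 at day 3.

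Of the 13 measured chaperones of the ER, 2 were called higher at day 3 than in mesenchymal cells and 0 lower, against 13.5% of all genes called either way, with a median change of 0.37 over the list and -0.05 over all genes. Serpinh1 (HSP47), the collagen-specific chaperone, read 5127.6, 4866.4 and 7653.8 in mesenchymal cells, 7958.6, 6596.4 and 5840.2 at day 1, and 12423.0, 12788.0 and 15550.3 at day 3. It was called at day 3 against mesenchymal cells (1.22, limma adjusted p = 0.0016), in all 19 alternatives, and against day 1 (1.00, adjusted p = 0.0231), in 11 of 19. With the replicate block the change against day 1 was not called (adjusted p = 0.059). The disulfide isomerase Pdia6 was called in the former comparison (0.82, adjusted p = 0.0264), with 2 other probe sets called the same way at 0.86 and 0.92. The call for Pdia6 was lost in 8 of 19 alternatives, with adjusted p of up to 0.0944. At day 1 against mesenchymal cells 1 of the 13 was called, against 5.91% of all genes, the disulfide isomerase Pdia4 (0.63, adjusted p = 0.0434), and it was lost in 15 of 19 alternatives. Hspa5 and Hsp90b1, the ER counterparts of Hspa8 and Hsp90aa1, differed by 0.75 ± 0.27 (adjusted p = 0.106) and 0.31 ± 0.15 (adjusted p = 0.239) at day 3 against mesenchymal cells. In that comparison Hsp90aa1 and Serpinh1 were called in opposite directions. The difference between the lists was not tested.

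**Figure D4:**
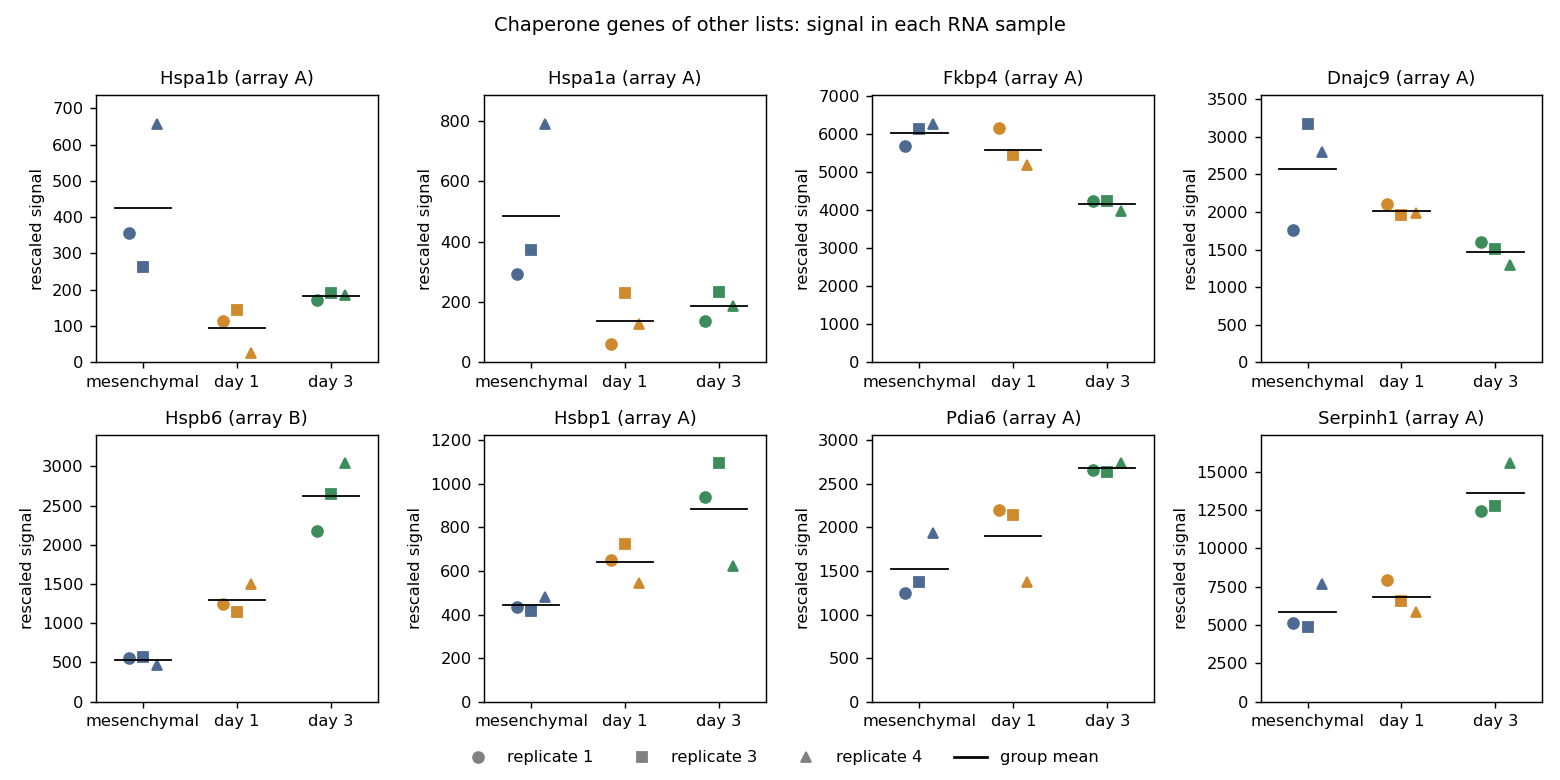
Rescaled MAS5 signal (linear axis from 0) of 8 chaperone genes or regulators outside the 9 members in each RNA sample, with the replicate number as the symbol and the group mean as a line. Hspb6 and Serpinh1 have their highest samples at day 3, and Hspa1b and Hspa1a in mesenchymal replicate 4 (656.7 and 788.9).

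Immediate early genes answer handling and serum within minutes and were read beside the chaperones. Of 17 measured, 5 were called higher and 1 lower at day 3 than in mesenchymal cells, against 13.5% of all genes called either way, with a median change of 0.32 beside -0.05 over all genes. The lower one was Fosb, with signals of 831.3, 814.0 and 582.8 in mesenchymal cells and 271.3, 355.3 and 292.6 at day 3 (-1.14). It was also called lower at day 1 (-1.05), and that call was lost in 5 of 19 alternatives, among them the one with scan batches blocked (adjusted p = 0.055). Egr1 went the other way, from 260.3, 474.2 and 547.3 to 1294.4, 1282.8 and 1231.1 (1.52), as did Ier3 (0.97) and Klf4 (1.05). Blocking by scan batch ended the calls at day 3 for Fosb (-1.50), Egr1 (0.72) and Klf4 (1.59), and Klf4 was called in 6 of 19 alternatives.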

How the data were processed

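Groups and replicate numbers were taken from the sample titles. The authors deposited 1 signal intensity per probe set and array, made with MAS5 per the submitters' processing notes; no version or setting was at hand. The deposited intensities already had the same 2% trimmed mean within each array type. Scan batches came from the arrays' experiment records.

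Signals were multiplied so that the trimmed mean of every array became 500, 50 was added to the rescaled deposited intensity, and log2 was taken. Control probe sets (66 per array type) and probe sets with a mean under 200 in every group were left out. Each array type was fitted in R 4.3.3 with limma 3.58.1 (lmFit, and eBayes with a trend) over all 9 samples, and p-values were adjusted over 23545 probe sets. The script was tested on simulated data. Deviations from the group means of same-numbered day 1 and day 3 samples correlated at 0.107, 0.126 and 0.251. Those of differently numbered ones correlated at -0.177 to 0.081. The replicate block entered the number as a term over all 9 samples, mesenchymal ones included, and the labels give no pairing. Same-numbered mesenchymal and later samples correlated at -0.202 to 0.062, so the pairing of mesenchymal samples was assumed and not shown. The 0.251 joined replicate 4 of both days, samples of high ribosomal RNA signal. Mesenchymal replicate 1, also high in that signal, correlated with them at 0.195 (day 1) and 0.237 (day 3) despite its other number. Whether number or ribosomal RNA signal accounts for the correlations was not tested. The unpaired fit remained the one reported.

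Of 36701 probe sets, 29131 had 1 gene symbol in the platform annotation, 724 had several and 6846 had none, and 29044 were updated through the Entrez identifier. All members are named, and at most 4 genes called of each other list, by the moderated F test. Hspa1a, Hspa9, Stip1, Hsf2, Hspa5, Hsp90b1 and Col2a1 were named outside this rule, after their values were seen. The members, the lists and the alternatives were chosen with earlier results of these data known. Promoter sequences are from RefSeq.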

Additional observations from a re-analysis of the deposited data

How the results depend on the processing

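The number of chaperone probe sets called at day 3 against mesenchymal cells was 1, and it was 0 without the variance trend, with the replicate block, with the scan batch as a block and without the 3 samples of high 18S signal. It was 0 to 1 when single samples were left out. In the other 2 comparisons it was 0 in every alternative run. Under the replicate block limma called 911, 258 and 1998 of all probe sets (day 1 against mesenchymal, day 3 against day 1, day 3 against mesenchymal), against 1128, 380 and 2489. Deviations of same-numbered mesenchymal and later samples correlated at -0.202 to 0.062. In the comparison of day 3 with day 1 no member was called with or without the block, so it had no member call to change. Among named genes of the other lists, the block ended the calls for Hspb6, Serpinh1 and Ier3 in that comparison. Whether the numbers pair the samples of any of these groups was not settled.

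Among uncalled changes, signs turned as follows, and the cause was not tested. Quantile normalization gave -0.04 for Hsph1 and -0.06 for Dnajb1 at day 1 against mesenchymal cells, and -0.02 for Hspa4 at day 3 against day 1. The scan batch as a block gave 0.15 for Hspd1 at day 1 and 0.96 at day 3 against mesenchymal cells (adjusted p = 0.152 for the latter), 0.49 for Hsph1 at day 3 against mesenchymal cells, and 0.06 for both Hsp90aa1 and Hsph1 at day 3 against day 1. Without the 3 samples of high 18S signal, the change at day 3 against day 1 was -0.05 for Hspa4, 0.08 for Hsp90aa1 and -0.05 for Dnajb1. A pseudocount of 200 gave -0.01 for Hspb1 in that comparison. Leaving out single samples gave ranges that cross 0. At day 1 against mesenchymal cells they were -0.10 to 0.23 for Hsph1, -0.14 to 0.15 for Dnajb1 and -0.94 to 0.62 for Hspb1. At day 3 against day 1 they were -0.12 to 0.08 for Hspa4, -0.21 to 0.06 for Hsp90aa1, -0.21 to 0.06 for Hsph1 and -0.72 to 0.84 for Hspb1. At day 3 against mesenchymal cells they were -0.35 to 0.32 for Hspd1, -0.15 to 0.19 for Hsph1 and -0.66 to 0.31 for Hspb1. The mean over a gene's probe sets was -0.22 for Hspa4 and -0.04 for Dnajb1 at day 1 against mesenchymal cells, and -0.15 for Hspa4 and 0.06 for Hspd1 at day 3 against mesenchymal cells. With its sign unchanged, it was 0.19 for Hspd1 at day 3 against day 1. No call for a gene of the other lists changed sign. The alternatives for those genes were chosen after seeing the data. A ratio of Hsp90aa1 to Hsp90ab1 was not run, for want of a probe set.

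Signal over background limits Hspb1, the second probe set of Hspd1 and the Hspa1a and Hspa1b folds.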
